A study of Mus musculus with 12 samples.

Results

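Lysosomes are acidic compartments in which hydrolases break down proteins, glycans and lipids, and autophagy delivers cytoplasm and damaged organelles to them inside a double-membraned autophagosome. Proton pumps acidify the lumen, membrane glycoproteins such as Lamp1 and Lamp2 line it, and the transcription factor Tfeb is known to raise many of these genes through a short promoter motif. In astrocytes this system degrades material taken up from the surroundings as well as the cell's own organelles, and inherited defects in several of the genes cause lysosomal storage diseases of the brain. Here 39 such genes were followed by their symbols among the 20614 genes of the deposited table, 25 of the lysosome and 14 of autophagy, and each was found once. The set was chosen by known function with earlier results of these data known, and Dram2 was selected on a difference between genotypes in these libraries. Values of Dram2 are therefore a description and carry no test, and the tests below concern the other members.

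The 12 libraries came from astrocytes of male mice bred from C57BL/6J, aged 12 to 14 months, mean 13.5 months. The paper calls the tissue midbrain and gives its regions as striatum, thalamus and substantia nigra. The cells were depleted of endothelial cells, myelin and microglia and then captured with beads against the astrocyte surface antigen ACSA-2. There were 3 Cd38+/+, 3 Cd38+/- and 6 Cd38-/- libraries, and the comparisons address how loss of 1 or both copies of Cd38, an enzyme that consumes NAD, relates to expression in these cells. The Cd38tm1Lnd allele is disrupted in every tissue, so a difference need not arise in the astrocytes. The paper lists the knockout stock as B6.129P2, and a strain difference carried with the allele cannot be told apart from loss of Cd38. The labels do not say whether libraries of a genotype came from separate mice, and p-values then measure the spread between these libraries.

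Cd38 itself, as the check of the labels, lay between 105 and 149 TPM (transcript abundance per length, scaled to a fixed library sum) in Cd38+/+, between 90.4 and 90.8 in Cd38+/- and between 8.54 and 21.9 in Cd38-/- libraries. The 10 astrocyte markers summed to between 11200 and 16400 TPM in Cd38+/+, between 16700 and 18800 in Cd38+/- and between 12700 and 16400 in Cd38-/- libraries. The 12 microglia markers summed to between 17.4 and 61.3 TPM, between 53.6 and 78.4 TPM and between 39.2 and 128 TPM in the same order, and Cx3cr1 and Tmem119 were listed at 0 in every Cd38+/+ library. The 8 oligodendrocyte markers ranged from 1300 to 7190, from 3090 to 11000 and from 3180 to 17800 TPM. The 10 neuron markers summed to between 65.8 and 73 TPM in Cd38+/+, between 39.1 and 61.7 in Cd38+/- and between 47.8 and 128 in Cd38-/- libraries, and the 4 erythroid markers to between 4660 and 20100, between 1910 and 3950 and between 2290 and 9260 TPM. Genes of the response to dissociation summed to between 922 and 1170 TPM in Cd38+/+, between 467 and 749 in Cd38+/- and between 565 and 1130 in Cd38-/- libraries. The Cd38+/+ libraries stood apart, with 13160 to 13516 genes above 0 against 15920 to 17906 in the others, and the number of reads behind any TPM value is unknown. In bulk RNA, fewer cells of a type and less RNA per cell cannot be told apart, and the part of these shifts in the results below was not tested.

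Dram2 encodes a lysosomal membrane protein linked to autophagy. It gave 77.7, 74.1 and 35.5 TPM in the Cd38+/+ libraries, 46.9, 48.5 and 45.3 TPM in Cd38+/- and 26, 24.8, 27, 30.2, 26.8 and 25.6 TPM in Cd38-/-. All 6 Cd38-/- libraries lay below every other library, while the Cd38+/- libraries lay inside the wide Cd38+/+ range, whose lowest library was well apart from the rest of its genotype. The 6 Cd38-/- libraries averaged 26.7 ± 1.89 TPM (SD). The 3 Cd38+/- libraries averaged 46.9 ± 1.62 TPM and the 3 Cd38+/+ libraries 62.4 ± 23.4 TPM. The fitted log2 fold change, on log2(TPM + 1), was -0.79 (SE 0.1) for Cd38-/- against Cd38+/-, -1.11 (SE 0.24) for Cd38-/- against Cd38+/+ and -0.32 for Cd38+/- against Cd38+/+. Its relative Dram1, a target of p53, was barely present, at 0.86 to 3.12 TPM across the 12 libraries, and did not pass the filter of a mean above 5 TPM in a compared genotype.

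The 250 bases before the annotated start of 4 members are shown because the levels of these members in each genotype are described here and because they differ in the Tfeb-type motif CACGTG, which is its own reverse complement and is in capitals. They are from RefSeq on GRCm38.p6, and each is written 5′ to 3′ on the strand of its gene. The promoter of Dram2, which lies on chromosome 3 at chr3:106547548-106547797 on the plus strand, and that of Lamp2, at chrX:38456461-38456710 on the minus strand, hold no such motif. Lamp1, at chr8:13158911-13159160 on the plus strand, holds 4 copies, and Ctsd, at chr7:142387828-142388077 on the minus strand, holds 2 copies.
Dram2: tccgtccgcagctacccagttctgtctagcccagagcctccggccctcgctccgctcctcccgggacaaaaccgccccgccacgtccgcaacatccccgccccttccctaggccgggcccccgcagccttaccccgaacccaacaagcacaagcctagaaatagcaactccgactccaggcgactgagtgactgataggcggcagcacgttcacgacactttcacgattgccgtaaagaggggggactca
Lamp2: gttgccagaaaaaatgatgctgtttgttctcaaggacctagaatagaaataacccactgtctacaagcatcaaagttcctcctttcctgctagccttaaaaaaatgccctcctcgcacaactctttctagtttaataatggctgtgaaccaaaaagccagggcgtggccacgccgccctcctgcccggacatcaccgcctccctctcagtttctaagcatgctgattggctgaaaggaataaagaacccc
Lamp1: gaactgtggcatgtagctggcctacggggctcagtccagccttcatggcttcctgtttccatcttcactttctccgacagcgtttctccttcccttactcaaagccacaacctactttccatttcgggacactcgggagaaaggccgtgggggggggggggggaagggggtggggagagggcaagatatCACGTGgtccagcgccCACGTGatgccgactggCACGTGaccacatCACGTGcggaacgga
Ctsd: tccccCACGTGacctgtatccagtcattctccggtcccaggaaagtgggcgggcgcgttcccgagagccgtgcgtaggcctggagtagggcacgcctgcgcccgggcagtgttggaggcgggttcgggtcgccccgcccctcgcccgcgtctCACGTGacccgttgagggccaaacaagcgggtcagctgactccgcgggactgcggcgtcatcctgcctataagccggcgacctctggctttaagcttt

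Promoters were found for 34 of the 39 members, and CACGTG was present within 250 bases before to 50 bases after the start, a window of 300 bases, in those of 10 members (29.4%), against 9.39% of the 16193 genes of the deposited table that had a promoter. The longer form TCACGTGA, of which CACGTG is the core, was present in 4 members (11.8%), Ctsa, Ctsd, Gla and Mcoln1, against 1.49% of all genes. These matches describe the letters of the window and not binding. The start used for Lamp2 lies a few bases before the GENCODE transcripts of the gene. The starts given for Atg7, Ctsd and some other members lie inside their GENCODE genes. The GENCODE gene of Ctsd reaches to 142388038, so most of its printed bases, with the motif copy nearer the start, lie inside that gene.

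Levels of the members ran from Psap, the precursor of the saposins that activate sphingolipid hydrolases, at 1150 TPM over all libraries, to Dram1 at 1.59 TPM. Cd63, a tetraspanin of late endosomes and lysosomes, followed at 1090 TPM, then the aspartic protease Ctsd at 1030 TPM, Lamp1 at 986 TPM and the cysteine protease Ctsb at 791 TPM. Sqstm1, the receptor p62 that carries ubiquitinated cargo into autophagosomes, was the highest of the autophagy members at 637 TPM. At the other end of the roles were Npc1, the cholesterol exporter of the lysosomal membrane, at 32 TPM, Ctsz at 255 TPM among the proteases, Npc2, the soluble partner of Npc1, at 90.4 TPM, Gabarapl1 at 164 TPM among the Atg8 proteins and the kinase Ulk1, which starts autophagy, at 16.7 TPM. Becn1 was the highest of the initiation genes at 93.1 TPM, Atg7 the highest and Atg12 the lowest of the conjugation genes at 29.8 and 24.1 TPM, and the glycogen-degrading glucosidase Gaa the highest of the glycosidases and lipid hydrolases at 328 TPM. Tfeb was at 39.8 TPM. Gla, the alpha-galactosidase deficient in Fabry disease, was the lowest of these hydrolases at 4.83 TPM and, with Dram1, did not pass the filter, so 37 of 39 members were tested and 36 of these are not Dram2.

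**Figure D1:**
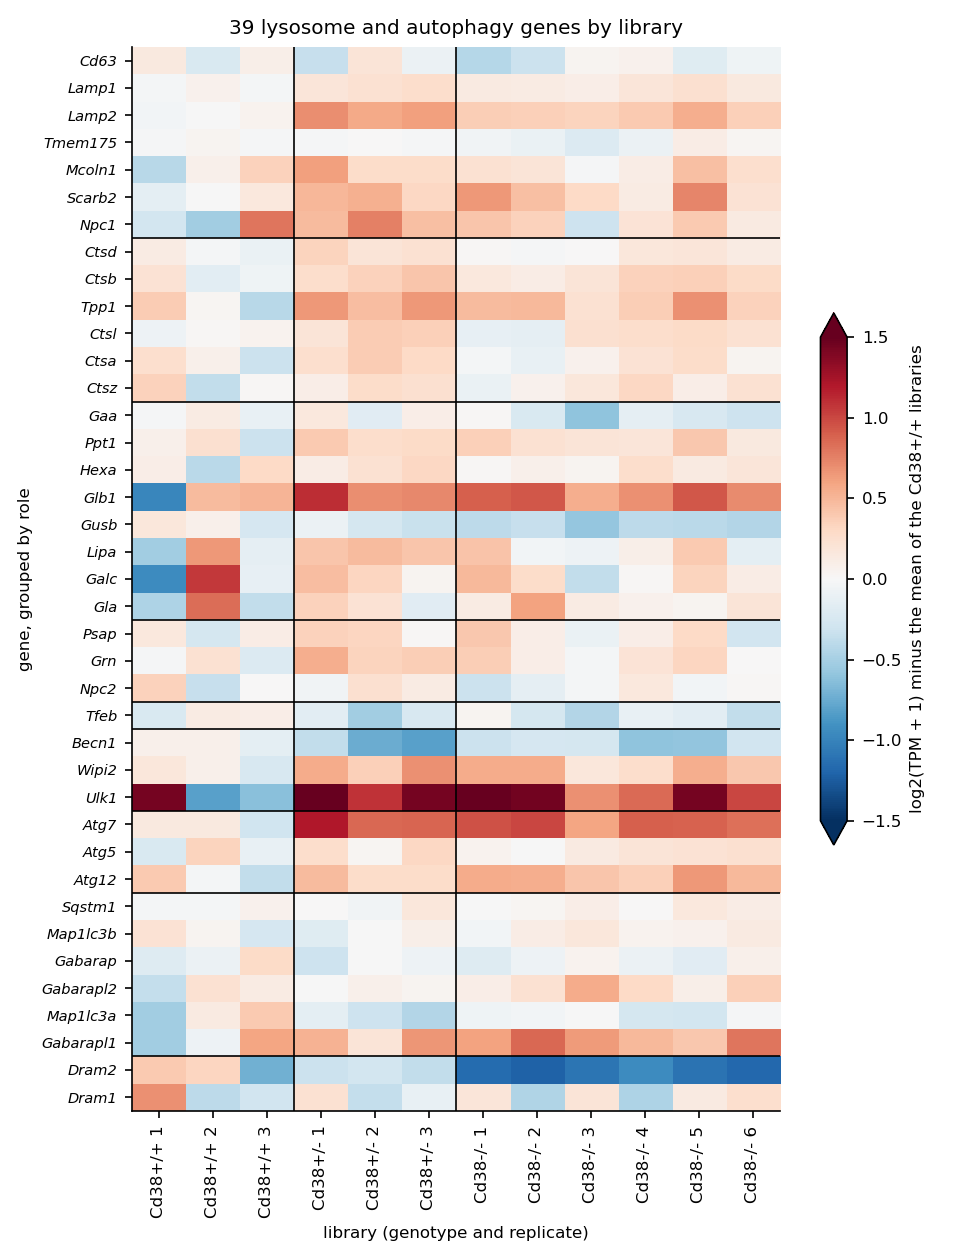
Each row is a member, grouped by role, and each column a library. Colour gives log2(TPM + 1) minus the mean of the 3 Cd38+/+ libraries, with the scale ending at -1.5 and 1.5. The 6 Cd38-/- libraries are low for Dram2, and the Cd38+/- and Cd38-/- libraries are high for Atg7 and Lamp2.

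Cd38-/- astrocytes were compared with Cd38+/+ astrocytes. Lamp2 and Atg7 were higher in Cd38-/- cells and passed the test, 2 of the 36 members other than Dram2, while the remaining 34 did not. A gene was called where limma gave a Storey q under 0.05 and the change was at least 1.2-fold. By this rule 8.28% of the 11722 tested genes were called, 6.42% higher and 1.86% lower. The 2 calls are 5.56% of the members. Of all calls 77.5% were higher in Cd38-/-, and this share moved to 58.3% when libraries were scaled by median ratios, 59.9% after quantile normalization and 32.7% once trends on transcript length and GC content were removed. The median log2 fold change was 0.13 over the members and 0.15 over all tested genes, and the latter moved to 0.03 with median-ratio scaling and to -0.07 with the trends removed. The median of the 24 tested lysosomal members, also 0.13, moved to 0 with median-ratio scaling, to 0.1 after quantile normalization and to -0.1 with the trends removed.

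Lamp2, whose protein is needed for fusion of autophagosomes with lysosomes and, as Lamp2a, for chaperone-mediated autophagy, gave 203, 209 and 217 TPM in Cd38+/+, 340, 311 and 321 TPM in Cd38+/- and a lowest, median and highest value of 265, 270 and 307 TPM in Cd38-/-. The 3 genotypes did not overlap, and the order was Cd38+/+, Cd38-/-, Cd38+/-. For Cd38-/- against Cd38+/+ the log2 fold change was 0.39 (SE 0.1, limma q = 0.031). With the trends on length and GC content removed the log2 fold change of Lamp2 was 0 (limma q = 0.494), and it was 0.27 with median-ratio scaling (limma q = 0.101). The call also ended with Benjamini-Hochberg adjustment (limma, adjusted p = 0.0549), without the trend of the variance (limma q = 0.0644) and with library weights (limma q = 0.392).

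Lamp1, which with Lamp2 makes up much of the protein lining of the lysosome, gave 875, 937 and 879 TPM in Cd38+/+, 1020, 1050 and 1080 TPM in Cd38+/- and a lowest, median and highest value of 963, 989 and 1060 TPM in Cd38-/-. Every Cd38+/+ library lay below every other library, while Cd38+/- and Cd38-/- overlapped. The log2 fold change was 0.16 (SE 0.09, limma q = 0.187) for Cd38-/- and 0.23 (SE 0.12, limma q = 0.269) for Cd38+/- against Cd38+/+, and with the trends on length and GC content removed these came to -0.1 and 0.04.

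Atg7, the E1-like enzyme that activates the ubiquitin-like proteins of autophagy, gave 19.6, 19.5 and 14.1 TPM in Cd38+/+, 41.7, 32.8 and 33 TPM in Cd38+/- and a lowest, median and highest value of 26.9, 33.4 and 36 TPM in Cd38-/-. Every library lacking a copy of Cd38 lay above every Cd38+/+ library, while Cd38+/- and Cd38-/- overlapped. The log2 fold change for Cd38-/- against Cd38+/+ was 0.86 (SE 0.19, limma q = 0.0221), 0.72 with the trends on length and GC content removed (limma q = 0.024). With library weights it was 0.85 and no longer called (limma q = 0.289). Both calls were lost when Cd38-/- replicate 1, 2, 5 or 6 was left out, with limma q between 0.0657 and 0.0783 for Lamp2 and between 0.0557 and 0.0662 for Atg7. The count of called members was 6 without Cd38+/+ replicate 1, 3 without Cd38+/+ replicate 2 and 8 without Cd38+/+ replicate 3. Over all genes these 3 fits called 1829, 1931 and 3119 genes, against 970 in the main fit, so calls rose far beyond the members.

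**Figure D2:**
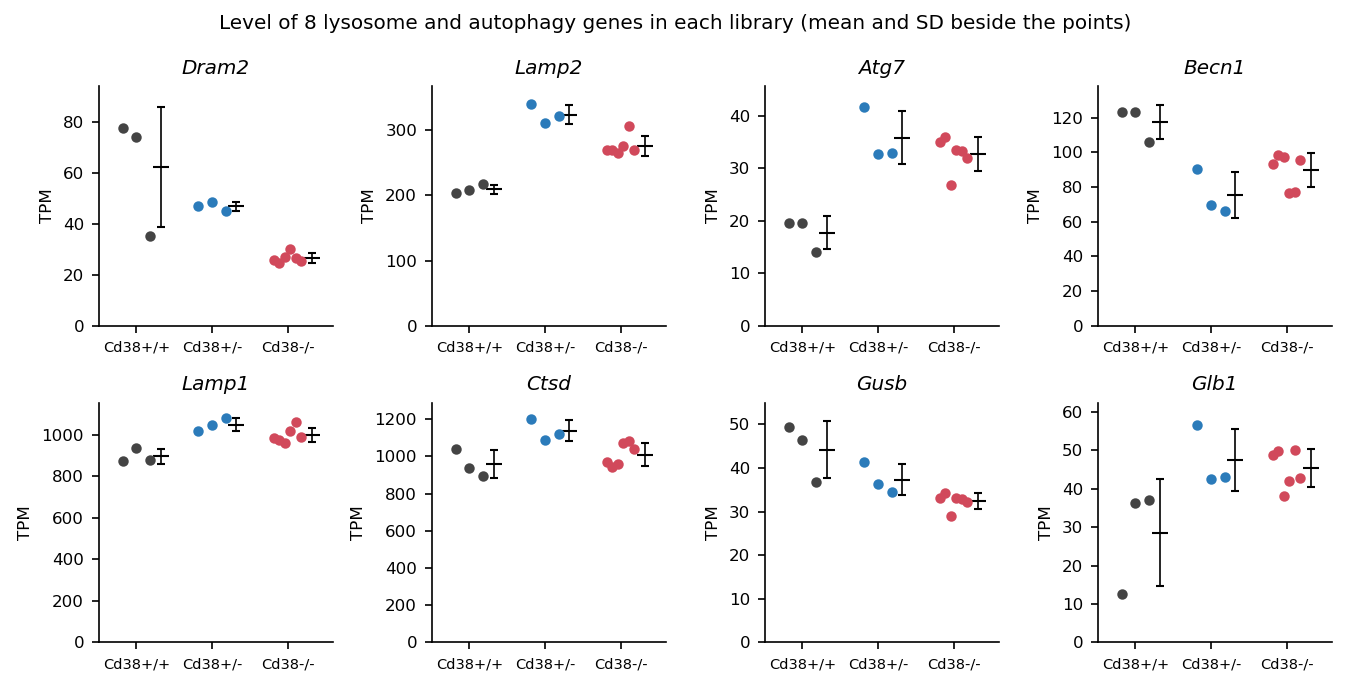
Points are single libraries, coloured by genotype, with TPM on a linear axis from 0 and the mean and SD beside them. Lamp2 shows 3 separate levels, Atg7 is lowest in Cd38+/+, and Dram2 is lowest in Cd38-/-.

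The other members are described by counts and by those nearest to the threshold. At an unadjusted limma p under 0.05, 9 of the 36 members were higher and 2 lower in Cd38-/- (25% and 5.56%), against 17.6% and 5.99% of all tested genes. Complete separation of the libraries was seen for 5 members that were higher (Lamp1, Lamp2, Glb1, Wipi2 and Atg7) and 2 that were lower (Becn1 and Gusb), against 8.21% and 3.62% of all tested genes. Leaving out a library can only keep or raise such a count, and the 7 became 14 without Cd38+/+ replicate 1. Gabarapl1, an Atg8 protein, had a log2 fold change of 0.63 (SE 0.2, limma q = 0.0557), which was 0.37 without Cd38+/+ replicate 1 and 0.93 and called without Cd38+/+ replicate 3 (limma q = 0.00325), and 23.14% of its 50-base windows are shared with a gene on the opposite strand. Glb1, the beta-galactosidase whose activity is used as a marker of senescent cells, gave 12.6, 36.2 and 37 TPM in Cd38+/+ and 38.2 to 50 TPM in Cd38-/-. Its log2 fold change was 0.78 (SE 0.29, limma q = 0.0774). Without Cd38+/+ replicate 1, the library at 12.6 TPM, it was 0.29, and without replicate 2 or 3 of that genotype it was 1.02 or 1.03 and called (limma q = 0.0354 and 0.0213). Gusb, the beta-glucuronidase, gave 36.8 to 49.4 TPM in Cd38+/+ and 29 to 34.3 TPM in Cd38-/-, a log2 fold change of -0.43 (SE 0.16, limma q = 0.0808). Gusb was called lower with median-ratio scaling (-0.55, limma q = 0.0429), after quantile normalization (-0.51, limma q = 0.0493), with the trends removed (-0.68, limma q = 0.0202) and without Cd38+/+ replicate 3 (-0.55, limma q = 0.0173).

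Becn1, the Beclin subunit of the lipid kinase that nucleates autophagosomes, went the other way from most members. It gave 123, 123 and 106 TPM in Cd38+/+, 90.3, 69.7 and 66.2 TPM in Cd38+/- and a lowest, median and highest value of 76.7, 94.5 and 98.3 TPM in Cd38-/-. Every Cd38+/+ library lay above every other library, with a log2 fold change of -0.39 (SE 0.14, limma q = 0.0682) for Cd38-/- and -0.64 (SE 0.19, limma q = 0.177) for Cd38+/-. For Cd38-/- it was called lower with median-ratio scaling (-0.51, limma q = 0.0401), with the trends removed (-0.56, limma q = 0.0202), with no filter (limma q = 0.0357) and without Cd38+/+ replicate 3 (-0.46, limma q = 0.0254). The reads of Becn1 are uncertain, since 36.79% of its 50-base windows are shared with other genes, Cntd1 on the opposite strand among them. Ulk1 had the highest log2 fold change of the members, 1.22 (SE 0.47, limma q = 0.0823), with Cd38+/+ libraries at 20.6, 3.53 and 4.18 TPM, so that 1 of them lay inside the Cd38-/- range of 11.8 to 29.3 TPM. Without that library, Cd38+/+ replicate 1, its log2 fold change was 1.94 and called (limma q = 0.00567).

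By role, the 6 proteases all had log2 fold changes above 0 in Cd38-/-, as had 64.3% of all tested genes. They ran from 0.08 to 0.44 with a median of 0.13, against 0.15 over all tested genes, and 0 were called. With median-ratio scaling or with the trends removed 4 of the 6 were above 0. The highest log2 fold change of the proteases was that of Tpp1, the tripeptidyl peptidase lost in a childhood neuronal ceroid lipofuscinosis. Its log2 fold change of 0.44 was 0.63 and called without Cd38+/+ replicate 1 (limma q = 0.0178) and 0.23 without replicate 3. The 7 membrane proteins had a median log2 fold change of 0.2, which turned to -0.1 with the trends removed, and 1 call, Lamp2. The 7 tested glycosidases and lipid hydrolases had no call and a median of 0.12, which turned to -0.01 with median-ratio scaling, -0.02 after quantile normalization and -0.25 with the trends removed. The 3 conjugation genes Atg5, Atg7 and Atg12 had a median of 0.5, which came to 0.38, 0.35 and 0.13 under the same 3 scalings, and the 6 Atg8 proteins and receptor a median of 0.08 that turned to -0.05 with median-ratio scaling and to -0.09 with the trends removed. Tfeb itself was not called, at a log2 fold change of -0.22 (SE 0.17, limma q = 0.261).

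Cd38+/- astrocytes were compared with the same Cd38+/+ libraries. The 24 tested lysosomal members had a median log2 fold change of 0.29, with 20 above 0 (83.3%), against 64.4% of all tested genes. This median was 0.15 with median-ratio scaling, 0.27 after quantile normalization and 0.04 with the trends on length and GC content removed. No member was called. Over all 11763 tested genes limma called 0, or 0%, and the median was 0.18. With all 12 libraries in 1 fit 5 members were called, among 1464 calls over the 11763 tested genes. At an unadjusted limma p under 0.05, 8 members were higher and 1 lower, against 9.5% and 3.99% of all tested genes. With 3 libraries against 3 an exact permutation test of 1 gene cannot go below p = 0.1.

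The libraries did not overlap for 13 of the 36 members that were higher in Cd38+/-, against 15.5% of all tested genes, and for 1 that was lower, Becn1, against 6.94%. The 13 were 5 of the 6 proteases (Ctsa, Ctsb, Ctsd, Ctsl and Tpp1), the membrane proteins Lamp1, Lamp2 and Scarb2, the hydrolases Glb1 and Ppt1, the growth factor precursor Grn, and Wipi2 and Atg7 of autophagy. The count of members without overlap, 14 in both directions, fell to 9 with median-ratio scaling. The summed markers of astrocytes, neurons and erythroid cells and the genes of the response to dissociation did not overlap between these genotypes either, those of astrocytes higher and the other three lower in Cd38+/-.

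Ctsd gave 1040, 936 and 893 TPM in Cd38+/+ and 1200, 1090 and 1120 TPM in Cd38+/-, and 940 to 1080 TPM in Cd38-/-. Its Cd38+/- libraries lay above all others, with a log2 fold change of 0.25 (SE 0.13, limma q = 0.265) against Cd38+/+ that was -0.01 with the trends on length and GC content removed, and 32.354% of its 50-base windows are shared with Gm49369 on the same strand. Ctsb gave 794, 612 and 650 TPM in Cd38+/+ and 816, 867 and 907 TPM in Cd38+/-, a log2 fold change of 0.34 (SE 0.14, limma q = 0.226) that was 0.2 with median-ratio scaling. Of its windows 12.097% are shared with Fdft1 on the opposite strand. Ctsl and Ctsa share 26.332% and 11.641% of theirs with other genes, and Tpp1 shares 0%. Tpp1 gave 350, 273 and 201 TPM in Cd38+/+ and 420, 371 and 422 TPM in Cd38+/-, a log2 fold change of 0.59 (SE 0.2, limma q = 0.197). Lamp2 had a log2 fold change of 0.63 (SE 0.13, limma q = 0.176), which was 0.19 (limma q = 0.453) with the trends removed, and Atg7 one of 0.98 (SE 0.28, limma q = 0.177).

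**Figure D3:**
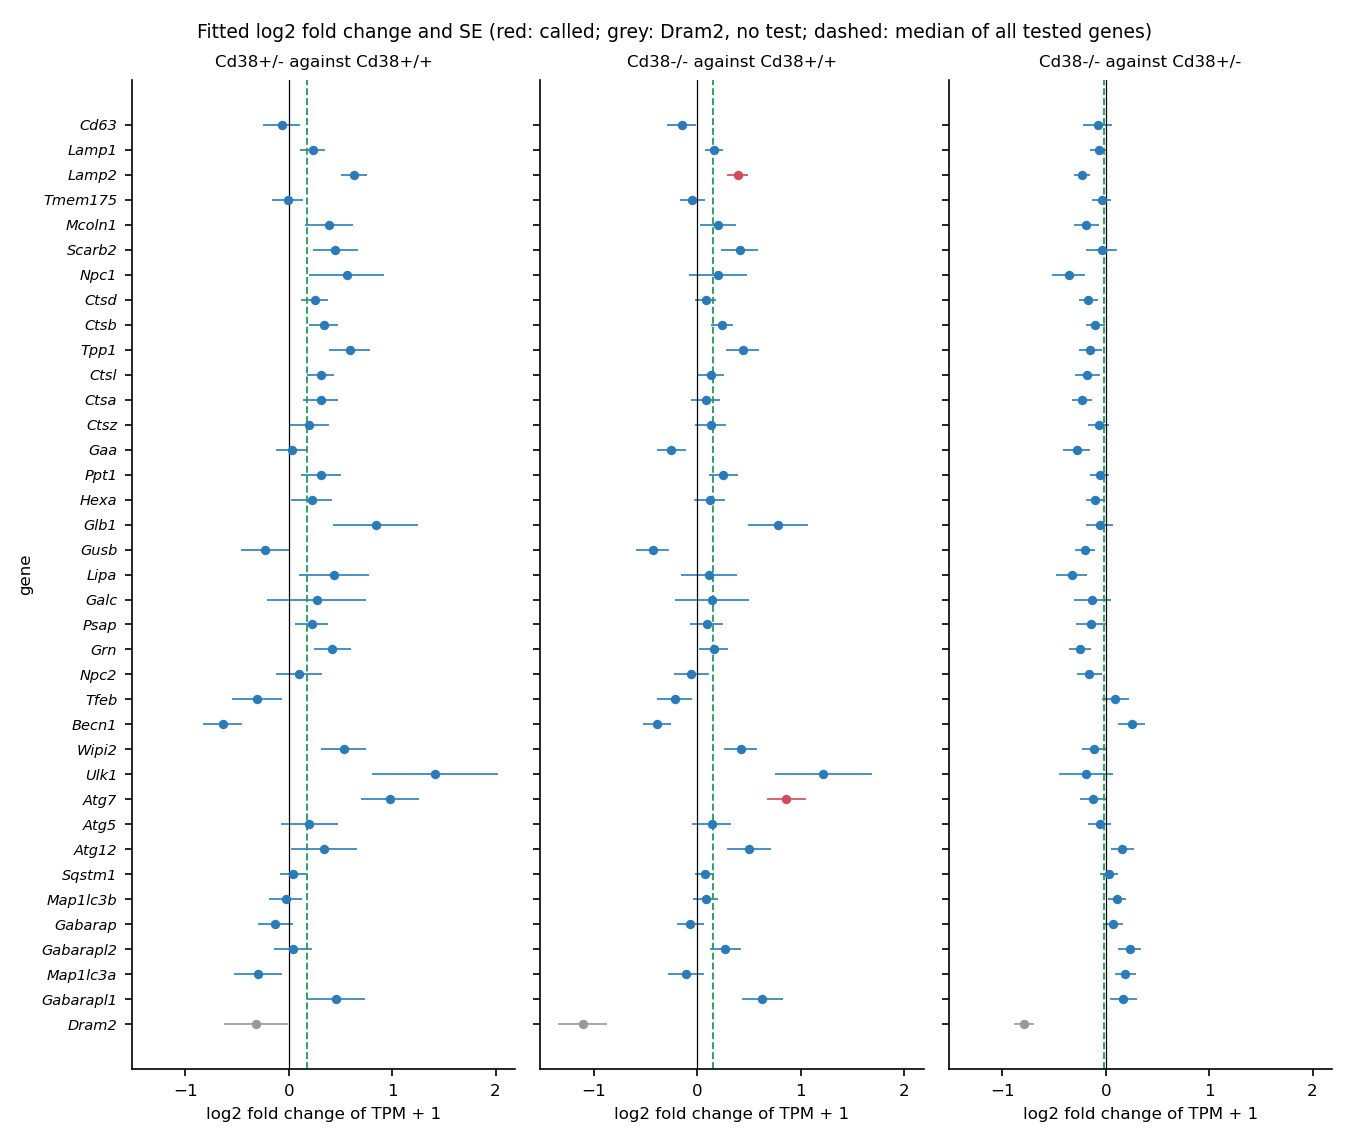
Fitted log2 fold changes of TPM + 1 with their SE for the 37 tested members in the 3 comparisons, called members in red, Dram2 in grey and the median of all tested genes dashed. Lamp2 and Atg7 are called in Cd38-/- against Cd38+/+, and the lysosomal members lie mostly right of 0 in Cd38+/- and left of 0 in Cd38-/- against Cd38+/-.

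Cd38-/- astrocytes were then compared with Cd38+/- astrocytes, the comparison that put Dram2 in the set, to see whether other members followed it. Of the 36 other members 0 were called. Over all 11563 tested genes limma called 4, or 0.0346%: Dram2, Cd38, Plac9b and Dynlt1b. Dram2 was taken into the set for this difference, so its call is no test, and Cd38 is the targeted gene. At an unadjusted limma p under 0.05, 0 members were higher and 5 lower in Cd38-/- (Lamp2, Ctsa, Grn, Npc1 and Lipa), against 6.24% and 5% of all tested genes.

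Of the 24 tested lysosomal members, 1 had a log2 fold change above 0, Tfeb, against 45.4% of all tested genes, and the median was -0.15 against -0.02 over all genes. The autophagy members other than Dram2 had a median of 0.09, with 8 of 12 above 0, among them all 6 of the Atg8 group and receptor. With median-ratio scaling, quantile normalization or removal of the trends, 1 or 2 of the 24 lysosomal members and all 6 of the Atg8 group and receptor were above 0. The summed astrocyte markers were also lower in Cd38-/- without overlap, at 12700 to 16400 TPM against 16700 to 18800 TPM in Cd38+/-. The part of this shift in the lysosomal values was not tested. The libraries did not overlap for Lamp2, Npc1, Ctsd and Gusb, which were lower in Cd38-/-, against 2.88% of all tested genes, and for Gabarapl2, which was higher, against 2.85%. Npc1 gave 36.5, 44.7 and 35.9 TPM in Cd38+/- and 20.8 to 34.9 TPM in Cd38-/-, a log2 fold change of -0.36 (SE 0.16, limma q = 0.321). Gabarapl2 gave 209, 221 and 216 TPM in Cd38+/- and 223 to 309 TPM in Cd38-/-, a log2 fold change of 0.23 (SE 0.11, limma q = 0.333), and 12.197% of its 50-base windows are shared with pseudogenes. The log2 fold changes of Lamp2, Ctsa, Grn and Lipa lay between -0.33 and -0.23, next to -0.79 for Dram2. The count of members without overlap was 3 with median-ratio scaling. It was 10 without Cd38+/- replicate 1, where leaving out a library can only keep or raise it.

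Averaged over the 39 members, log2(TPM + 1) came to 6.65 ± 0.0417 (SD) over the 3 Cd38+/+ libraries, to 6.88 ± 0.0443 over the 3 Cd38+/- libraries and to 6.79 ± 0.0566 over the 6 Cd38-/- libraries. The Cd38+/+ libraries, at 6.61 to 6.693, lay below all others, and the Cd38+/- libraries, at 6.851 to 6.933, overlapped with Cd38-/-, at 6.705 to 6.87. The difference was 0.23 for Cd38+/- and 0.14 for Cd38-/- against Cd38+/+, beside median log2 fold changes of 0.18 and 0.15 over all tested genes. The member differences came to 0.01 and -0.08 with the trends on length and GC content removed, and that of Cd38-/- to 0.02 with median-ratio scaling. The 25 lysosomal members averaged 7, 7.27 and 7.13 in Cd38+/+, Cd38+/- and Cd38-/- libraries, and the 14 autophagy members 6.01, 6.19 and 6.19. The means over 39 and over 14 members include Dram2, which was selected on a difference between genotypes and lowers the Cd38-/- means. They are a description and carry no test. The summed TPM of the 39 members was 0.906% to 0.981% of each Cd38+/+ library, 1.05% to 1.07% of each Cd38+/- library and 0.962% to 1.05% of each Cd38-/- library.

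**Figure D4:**
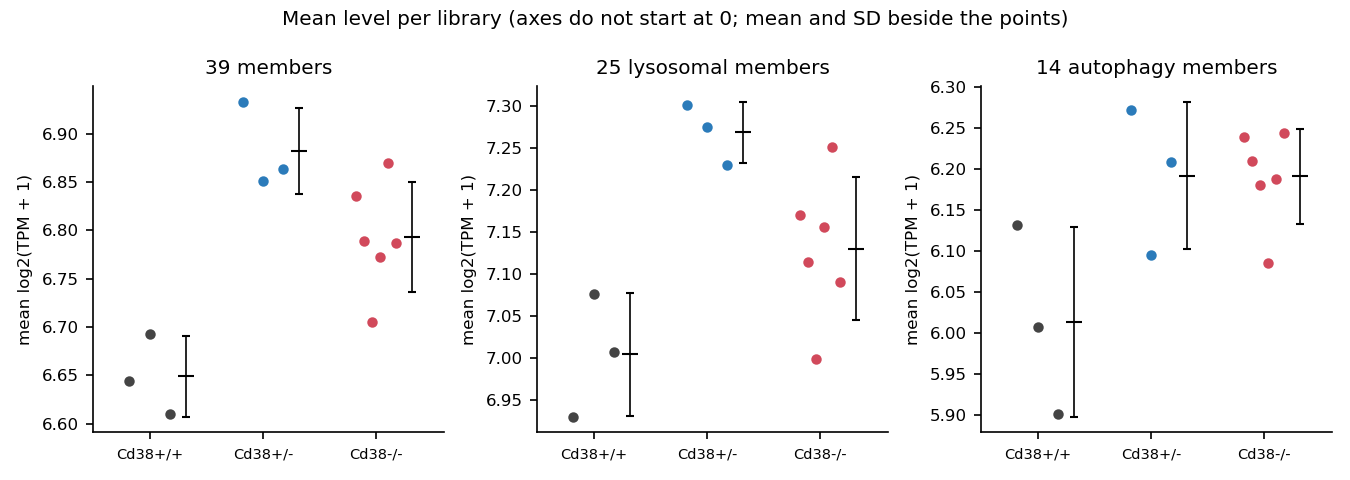
Mean log2(TPM + 1) over all 39 members, the 25 lysosomal and the 14 autophagy members in each library, with the mean and SD of each genotype beside the points. The Cd38+/- libraries are highest for the lysosomal members, at a mean of 7.27, and the axes do not start at 0. Dram2 is included in the 39 and in the 14 members.

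The wider pathway was followed in 7 lists, 173 genes in all, of which 161 were tested in Cd38-/- against Cd38+/+. There 9 were called higher and 2 lower, 6.83% of those tested, against 8.28% of all tested genes. In the other comparisons limma called 0 of 164. At an unadjusted p under 0.05, 24 (14.6%) were higher and 6 (3.66%) lower in Cd38+/- against Cd38+/+, where all tested genes gave 9.5% and 3.99%. In Cd38-/- against Cd38+/- 4 (2.44%) were higher and 15 (9.15%) lower, where all tested genes gave 6.24% and 5%. Of the 22 genes that deliver enzymes to the lysosome 3 rose: M6pr, the cation-dependent mannose 6-phosphate receptor, from 126 ± 13.9 to 164 ± 10.6 TPM (SD, n = 3 and 6), Vps35 of the retromer from 113 ± 10.3 to 151 ± 15.7 TPM, and Ap1g1 of the clathrin adaptor AP-1 from 12.2 ± 5.99 to 25.2 ± 5.09 TPM. Their Cd38+/- means were 164, 144 and 26.7 TPM in the same order. Their limma q were 0.0469, 0.0492 and 0.0362, and with the trends removed the log2 fold change of M6pr was 0.01. The number of called pathway genes was 23, 24 and 35 without Cd38+/+ replicate 1, 2 and 3, and 0 or 1 without Cd38-/- replicate 1, 2, 5 or 6 and 7 without replicate 3. Calls over all genes moved too, from 970 to 1829, 1931 and 3119 without Cd38+/+ replicate 1, 2 and 3. Without Cd38-/- replicate 1, 2, 5 or 6 they were 74 to 154, and 573 without replicate 3. Of the 11 called genes, 11 were still called after quantile normalization, 7 with median-ratio scaling (not Fundc1, M6pr, Vps35 and Mlst8) and 4 with the trends removed (Ap1g1, Atg10, Nrbf2 and Atp6v1g1).

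Of 31 tested core autophagy genes beyond the members, Atg10, the E2-like enzyme for Atg12, and Rb1cc1, the FIP200 scaffold of the Ulk1 complex, rose, and Nrbf2, a regulator of the Becn1 kinase complex, fell. Atg10 went from 8.03 ± 4.5 to 23.6 ± 2.89 TPM, a log2 fold change of 1.56 (SE 0.3, limma q = 0.0159), and its Cd38+/- mean was 19.2 TPM. Rb1cc1 averaged 58.8 TPM in Cd38+/- and 60.5 TPM in Cd38-/-, and Nrbf2 19.2 and 21.2 TPM. The log2 fold change was 0.81 for Rb1cc1 (limma q = 0.0392) and -0.78 for Nrbf2 (limma q = 0.0276), with Cd38+/+ libraries at 31.8 to 45.3 TPM and Cd38-/- libraries at 19 to 23.1 TPM for the latter. Among 21 genes of nutrient sensing, Rragd, a Rag GTPase that recruits mTORC1 to lysosomes, rose by 0.86 on the log2 scale (limma q = 0.0356) and Mlst8, an mTOR subunit, by 0.82 (limma q = 0.0392). The receptor of mitophagy Fundc1 rose by 0.56 on the log2 scale (limma q = 0.0492) among 15 autophagy receptors, and the iduronate sulfatase Ids by 1.01 (limma q = 0.0436) among 32 further hydrolases. Means in Cd38+/+, Cd38+/- and Cd38-/- were 10.3, 17 and 19.4 TPM for Rragd and 20.3, 40.6 and 35.2 TPM for Mlst8. For Fundc1 they were 70, 83.5 and 101 TPM, and for Ids 19.5, 42.7 and 41 TPM.

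The V-ATPase is the proton pump of the lysosome. Its 18 subunits had a median log2 fold change of -0.12 in Cd38-/- against Cd38+/+, and of -0.24, -0.16 and -0.29 with median-ratio scaling, quantile normalization and the trends removed. Atp6v1g1, a subunit of the peripheral stalk, fell from 338 ± 30.4 to 260 ± 21.9 TPM (SD, n = 3 and 6), a log2 fold change of -0.38 (SE 0.11, limma q = 0.0459), the only call among them in that fit. Its Cd38+/- mean was 234 TPM. Atp6v0b had a log2 fold change of -0.39 (limma q = 0.0503) and Atp6v0e2 one of 0.49 (limma q = 0.0582). The 22 tested genes of lysosomal membrane and positioning had no call and a median of 0.06, which turned to -0.07 with median-ratio scaling, -0.04 after quantile normalization and -0.14 with the trends removed, with Cln3, a membrane protein of unsettled function mutated in juvenile Batten disease, at -0.60 (limma q = 0.0726). The further hydrolases had a median of 0.14 there, which turned to -0.07 with the trends removed. For Cd38+/- against Cd38+/+ the median was -0.09 for the V-ATPase, 0.34 for the further hydrolases and 0.29 for the delivery genes. For Cd38-/- against Cd38+/- it was -0.04, -0.19 and -0.02 in the same order.

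**Figure D5:**
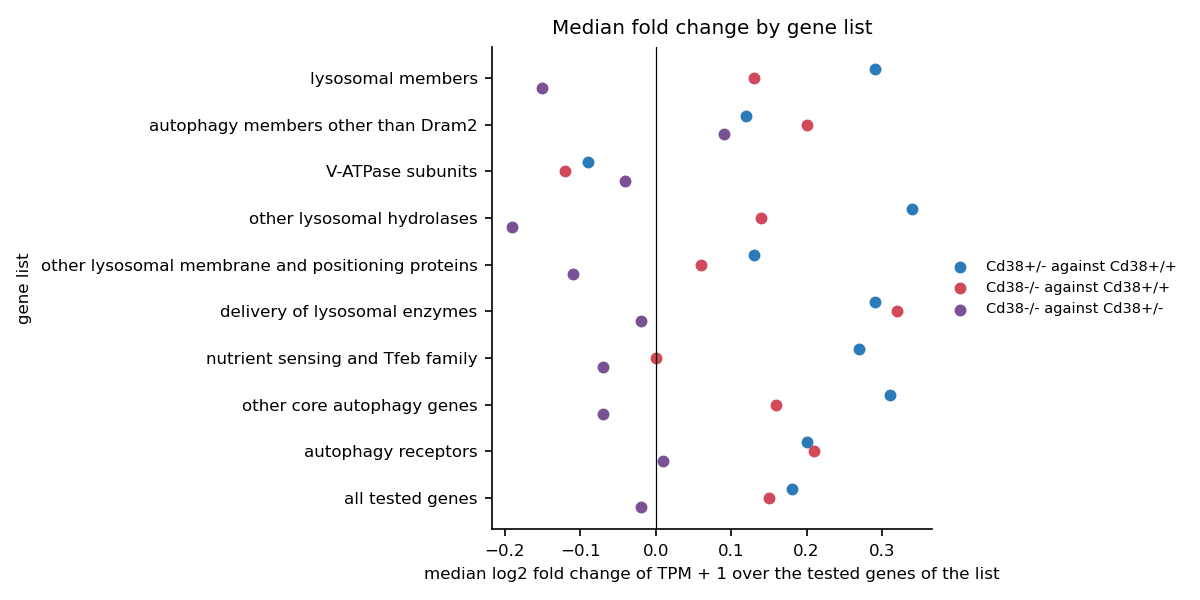
Median log2 fold change of TPM + 1 over the tested genes of each list in the 3 comparisons, with all tested genes in the last row. The V-ATPase median lies below 0 in each comparison, and the further hydrolases, whose Cd38-/- against Cd38+/+ median of 0.14 turned to -0.07 with the trends removed, run from 0.34 in Cd38+/- against Cd38+/+ to -0.19 in Cd38-/- against Cd38+/-.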

How the data were processed

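RNA of the 12 libraries was converted to cDNA with a low-input SMART-Seq kit and sequenced in pairs. According to their notes, the authors used Trim Galore 0.6.4, STAR 2.7.1a, RSEM 1.2.28, DESeq2 1.36.0 and the mm10 build. The deposited values are TPM per gene and library, which are not counts, so depth is unknown and the authors' DESeq2 was not applied here. The kit does not mark strand, so overlapping genes on opposite strands cannot be told apart. Genotypes came from the labels. Log2(TPM + 1) was fitted per comparison with limma 3.58.1 under R 4.3.3 (eBayes with a trend, 2 genotypes in each fit) for genes whose mean exceeded 5 TPM in a compared genotype. Storey q-values were computed, and a gene was called at q under 0.05 and 1.2-fold. The fit was run on simulated normal values that had the same spread in both genotypes, which the real libraries did not have. Positions and shared 50-base windows came from GENCODE vM21 and promoters from RefSeq on GRCm38.p6. Members, lists and tests were chosen with earlier results of these data known. Named are Dram2, called members, the 5 smallest p in each comparison, members without overlap, the highest and lowest of roles, and list genes that were called or had the 3 smallest p. The alternatives were pseudocounts of 0.1 and 5, other filters, Benjamini-Hochberg adjustment, no trend, library weights, median-ratio and quantile scaling, removal of length and GC trends, all libraries in 1 fit, a replicate block, and leaving out each library.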

Additional observations from a re-analysis of the deposited data

Results flagged for a closer look

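Within the 6 Cd38-/- libraries, 40 quantities (the 39 members and their mean) were examined for a library far from the rest, which chance gives in about 1 in 20. Lamp2 in Cd38-/- replicate 5 was at 307 TPM, against 275 TPM in the nearest and 265 TPM in the lowest library. Gla in Cd38-/- replicate 2 was at 6.88 TPM, against 4.93 TPM in the nearest and 4.33 TPM in the lowest library. The call of Lamp2 in Cd38-/- against Cd38+/+ was lost without replicate 5 (log2 fold change 0.36, limma q = 0.0777), and Gla was not tested.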

How the results depend on the processing

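For Cd38-/- against Cd38+/+ the 2 called members became 4 with no filter, 1 with Benjamini-Hochberg adjustment or without the trend, 0 with library weights and 8 with all 12 libraries in 1 fit; the 11 called pathway genes became 23 with no filter, 2 with Benjamini-Hochberg adjustment, 0 with library weights, 19 with length and GC trends removed and 29 with all libraries. The replicate block gave 0 called members and 0 pathway genes, with or without removal of the trends (without that removal, limma q = 0.384 for Lamp2 at 0.35 and 0.356 for Atg7 at 0.85). Deviations from the genotype means of same-numbered libraries correlated between -0.094 and -0.035 in this comparison and between -0.327 and 0.462 in Cd38-/- against Cd38+/-. Those of differently numbered libraries in the latter ran from -0.55 to 0.531. Whether equal numbers mark a shared batch or litter cannot be told from these values, since deviations within a genotype are tied to each other. The mean over the members, Dram2 included, differed by 0.02 (median ratios), 0.07 (quantiles) and -0.08 (trends removed). For Cd38+/- against Cd38+/+ no filter gave 1 called member and 4 pathway genes, and all libraries in 1 fit gave 5 and 29; the members without overlap were 9 with median-ratio scaling, and the mean differed by 0.1, 0.17 and 0.01 under the 3 scalings. For Cd38-/- against Cd38+/- library weights, whose estimate did not converge, gave 4 called members and 34 pathway genes, and median-ratio scaling left 3 members without overlap. Over all genes, Cd38-/- against Cd38+/+ gave 970 calls, 326 with Benjamini-Hochberg adjustment, 1 with library weights, 2 with the replicate block, 2283 with no filter and 1822 with all libraries; Cd38+/- against Cd38+/+ gave 663 with no filter and 1464 with all libraries; Cd38-/- against Cd38+/- gave 3120 with library weights.

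Leaving out 1 library gave 0 to 8 called members, 0 to 35 called pathway genes and 74 to 3119 calls over all genes in Cd38-/- against Cd38+/+. There it gave 7 to 14 members without overlap and a mean difference of 0.12 to 0.17. Leaving out a library cannot undo a separation, so counts without overlap could only stay or rise. In Cd38+/- against Cd38+/+ it gave 0 called members and pathway genes, 14 to 20 without overlap and 0.21 to 0.26. In Cd38-/- against Cd38+/- it gave 0 called, 5 to 10 without overlap and -0.1 to -0.06. With the trends removed, without and with the block, Lamp1 turned to -0.1 and -0.17 in Cd38-/- against Cd38+/+, and Scarb2 to -0.02 and Ctsd to -0.01 in Cd38+/- against Cd38+/+; with both, Lamp2 turned to -0.09 in Cd38-/- against Cd38+/+. Causes were not tested. TPM without counts limits what can be said of low genes such as Gla and Dram1.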

Other observations

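Dram2 lies on chromosome 3 from 106547798 to 106575890 (GRCm38) head to head with Cept1, an enzyme of phospholipid synthesis, whose first exon overlaps it by a few bases. Cept1 was at 82.8 ± 37.6 TPM in Cd38+/+ (SD, n = 3), 81.6 ± 6.96 TPM in Cd38+/- (SD, n = 3) and 71.8 ± 6.42 TPM in Cd38-/- (SD, n = 6). Its log2 fold change for Cd38-/- against Cd38+/- was -0.18 (limma q = 0.383), beside -0.79 for Dram2. The next expressed gene, Lrif1, was at 17, 15.5 and 16.3 TPM in Cd38+/+, Cd38+/- and Cd38-/-, and 4 other genes within 250000 bases of Dram2 were below 5 TPM in every library.

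The Cd38+/+ libraries varied more among themselves than the others over the members. The median SD of log2(TPM + 1) over the 39 genes came to 0.292 for Cd38+/+, against 0.14 for Cd38+/- and 0.157 for Cd38-/-, and Ulk1 had the widest spread in each genotype, with an SD of 1.25 in Cd38+/+. The main fits take a common variance for both genotypes, so they do not take up this difference. For Cd38-/- against Cd38+/+, where Cd38+/+ has fewer libraries, q can then be too small.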
